A study of Mus musculus with 18 samples.

Results

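The genes described here are 36 mouse genes of the interferon response and of nucleic acid sensing, out of 32286 features counted in each single-cell RNA-seq library of the study. They are a named list whose rule uses no measured value, but the list was drawn up with earlier results of these data known, and all 36 are among the features. By role they are 6 RNA sensors with their adaptor (Ddx58, Ifih1, Dhx58, Ddx60, Mavs, Tlr3), 5 transcription factors (Irf1, Irf3, Irf7, Irf9, Stat2), 14 antiviral effectors (Ifit1, Ifit2, Ifit3, Oas1a, Oas2, Oas3, Oasl2, Rsad2, Eif2ak2, Adar, Samhd1, Bst2, Ifitm2, Ifitm3), 7 members of the ubiquitin-like system and regulators (Isg15, Usp18, Trim25, Parp9, Parp14, Dtx3l, Ifi35), and a group of 4 with 3 guanylate binding proteins and a chemokine (Gbp2, Gbp3, Gbp7, Cxcl10). The study asked what the loss of Setdb1, a histone H3 lysine 9 methyltransferase, does to intestinal stem cells and their progeny. All mice were of C57Bl6 background, 60 to 65 days old, and carried Lgr5-GFP-CreERT2, an allele that makes GFP and a tamoxifen-activated Cre recombinase from the locus of the stem cell gene Lgr5. Each mouse, controls included, received 70 mg/kg tamoxifen in corn oil by 1 intraperitoneal injection, and 5 days later GFP+ cells were sorted from the crypts of the ileum. In the Lgr5+ sort, Lgr5+WT (genotype Lgr5-GFP-CreERT2) was compared with Lgr5+Setdb1KO (Lgr5-GFP-CreERT2/ Setdb1lox/lox), with 2 libraries of each. In the lineage-traced sort the mice also carried nTnG, a reporter that turns on nuclear GFP in cells where Cre has acted and in their descendants, and traced WT (Lgr5-GFP-CreERT2/nTnG) was compared with traced Setdb1-KO (Lgr5-GFP-CreERT2/ Setdb1lox/lox/nTnG), again with 2 libraries of each. Only cells that made Cre, and their descendants, can carry the deletion. The total RNA, H3K9me3 and scATAC samples of the study were not analysed here.

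Cells detect viral RNA with the helicases encoded by Ddx58 (RIG-I) and Ifih1 (MDA5), which signal through the mitochondrial adaptor encoded by Mavs, and with the endosomal receptor encoded by Tlr3. These routes activate IRF3 and IRF7, which drive interferon genes, and secreted interferon then acts through a complex with STAT2 and IRF9 that binds the interferon-stimulated response element (ISRE) of target promoters. The interferon-gamma branch uses a different element, the gamma-activated site (GAS), and IRF1 is both a target and a driver of that branch. Loss of Setdb1 is known to release endogenous retroviral transcripts in several cell types, where sensors of double-stranded RNA can detect them. The paper cites earlier work in which loss of this enzyme throughout the intestinal epithelium did so and set off antiviral responses. With the loss limited to stem cells and an early time point, the paper reports no massive rise of retroviral transcripts in bulk RNA. It also reports no activation of innate immunity genes in many cells. It does not exclude retroviral activation in a few cells. Ifitm3, a membrane protein that blocks virus entry, is known to be made in intestinal stem cells without any infection.

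Promoter windows of 300 bases, from 250 before to 50 after the annotated start, were taken from RefSeq (GRCm38.p6) and matched 31 of the 36 members. Oas2, Dhx58, Usp18, Parp9 and Parp14 had no entry. An ISRE was searched as 2 copies of GAAA with any 2 bases between them and a GAS as TTCNNNGAA, on both strands and with overlapping matches allowed. The ISRE letters were found in 18 of the 31 members (58.1%) and in 3.99% of all 27025 genes with a window. The GAS letters were found in 10 of the 31 (32.3%) and in 9.55% of all genes. The windows below belong to the members on which the comparisons turn. They are written 5′ to 3′ on the strand of the gene, with the matched letters in capitals, and where a GAS match and an ISRE match or several ISRE matches overlap, the capitals run together. Ifitm3 held 2 ISRE matches and 1 GAS match, Bst2 also 2 and 1, Isg15 3 and 0, Irf1 0 and 1, Gbp7 1 and 2, Cxcl10 1 and 0, and Ifit1 2 and 0. A match of letters is not a measured binding site.
Ifitm3 promoter, chr7:141010695-141010994, minus strand: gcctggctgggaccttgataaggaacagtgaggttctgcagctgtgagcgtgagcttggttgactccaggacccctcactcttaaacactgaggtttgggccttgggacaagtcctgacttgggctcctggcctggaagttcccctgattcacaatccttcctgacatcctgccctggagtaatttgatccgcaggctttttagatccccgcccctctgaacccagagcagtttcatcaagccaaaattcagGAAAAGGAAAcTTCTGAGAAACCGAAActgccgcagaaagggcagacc
Bst2 promoter, chr8:71537423-71537722, minus strand: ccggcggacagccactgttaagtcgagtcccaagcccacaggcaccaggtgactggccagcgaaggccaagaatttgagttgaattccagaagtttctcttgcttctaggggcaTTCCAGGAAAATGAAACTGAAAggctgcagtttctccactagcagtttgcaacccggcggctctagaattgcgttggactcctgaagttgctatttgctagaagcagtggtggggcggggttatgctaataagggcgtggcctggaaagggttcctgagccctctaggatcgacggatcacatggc
Isg15 promoter, chr4:156200769-156201068, minus strand: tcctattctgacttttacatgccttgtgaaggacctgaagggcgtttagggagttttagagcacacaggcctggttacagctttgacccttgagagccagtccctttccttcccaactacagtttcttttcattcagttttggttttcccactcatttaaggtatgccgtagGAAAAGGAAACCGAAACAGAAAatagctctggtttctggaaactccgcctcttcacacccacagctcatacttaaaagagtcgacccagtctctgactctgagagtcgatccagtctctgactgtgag
Irf1 promoter, chr11:53769764-53770063, plus strand: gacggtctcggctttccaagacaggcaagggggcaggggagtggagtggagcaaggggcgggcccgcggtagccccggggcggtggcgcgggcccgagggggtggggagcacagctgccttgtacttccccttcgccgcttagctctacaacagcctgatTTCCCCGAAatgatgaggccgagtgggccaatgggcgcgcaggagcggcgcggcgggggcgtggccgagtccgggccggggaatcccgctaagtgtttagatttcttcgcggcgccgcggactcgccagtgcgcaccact
Gbp7 promoter, chr3:142530086-142530385, plus strand: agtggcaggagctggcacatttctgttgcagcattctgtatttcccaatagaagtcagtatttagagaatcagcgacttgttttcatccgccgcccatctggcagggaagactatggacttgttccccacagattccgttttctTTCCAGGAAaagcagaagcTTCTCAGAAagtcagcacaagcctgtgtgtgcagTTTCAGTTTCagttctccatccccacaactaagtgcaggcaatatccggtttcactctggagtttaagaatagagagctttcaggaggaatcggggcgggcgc
Cxcl10 promoter, chr5:92348840-92349139, minus strand: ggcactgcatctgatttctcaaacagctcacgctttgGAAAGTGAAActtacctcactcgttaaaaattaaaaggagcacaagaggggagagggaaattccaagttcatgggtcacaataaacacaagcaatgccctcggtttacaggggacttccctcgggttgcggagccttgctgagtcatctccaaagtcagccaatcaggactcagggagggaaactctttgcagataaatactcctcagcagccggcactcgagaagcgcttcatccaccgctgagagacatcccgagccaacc
Ifit1 promoter, chr19:34640639-34640938, plus strand: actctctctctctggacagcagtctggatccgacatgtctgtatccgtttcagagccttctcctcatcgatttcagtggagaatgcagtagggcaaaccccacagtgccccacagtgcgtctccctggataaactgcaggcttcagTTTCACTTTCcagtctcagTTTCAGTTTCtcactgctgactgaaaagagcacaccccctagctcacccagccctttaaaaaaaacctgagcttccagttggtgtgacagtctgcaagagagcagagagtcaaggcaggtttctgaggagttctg

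Every captured RNA molecule of the 10x 3′ assay carries a unique molecular identifier (UMI), and the libraries held between 16881518 and 81876035 UMIs. Kept barcodes, with 1000 (Lgr5+ sort) or 500 (traced sort) to 18000 UMIs and under 5% mitochondrial UMIs, numbered 2894 to 11423 per library in the Lgr5+ sort, at a median of 4686 to 9336 UMIs, and 3882 to 10239 in the traced sort, at a median of 961 to 2085 UMIs. Pairs of libraries shared 3 to 34 kept barcodes. Levels are given in CPM, which are UMIs relative to the library's total after edgeR's TMM scaling, unless library totals or droplets are named, where no TMM factor is applied. Setdb1 itself was 10.9 and 10.3 in Lgr5+WT against 5.12 and 6.51 in Lgr5+Setdb1KO (log2 difference -0.85, adjusted p = 0.0470, with edgeR's test described below), a call that held without only 1 of the 4 libraries (adjusted p up to 0.136). In the traced sort it stood at 7.07 and 5.28 in WT and at 7.91 and 7.17 in the libraries labelled Setdb1-KO (log2 difference 0.24, adjusted p = 0.603), so its level did not mark the genotype there. By library totals it stood at 6.11 and 4.21 CPM in traced WT and at 10.4 and 7.85 CPM in traced Setdb1-KO. Reads of this assay come from transcript ends and say nothing of exon 3, the part that Cre cuts out. Barcodes were put into classes by UMIs of cell type markers, and the names below mean only that (stem-like, goblet-like and so on). In WT libraries of the Lgr5+ sort, 4 to 8 of the 10 leading genes of each named class were its own markers. Since the barcodes were chosen by these markers, this is no separate check of what the cells are. Barcodes that met no marker threshold made up 17.8% to 25.1% of the Lgr5+ libraries and 45.3% to 69.9% of the traced libraries and are called unassigned. Paneth markers took up 32.5% and 29.8% of all UMIs in the traced WT libraries, 7.06% and 4.78% in the traced Setdb1-KO libraries, and 33.8% and 35.4% in the droplets of 10 to 100 UMIs of the traced WT libraries, which hold free RNA.

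The members differed widely in how much of them was counted. Over the 36, summed UMIs came to 1888 and 1900 CPM in Lgr5+WT and 608 and 594 CPM in traced WT, on the scale of library totals. Ifitm2 and Ifitm3, close relatives of the same antiviral family, gave 77.2% to 82.7% of all member UMIs in the Lgr5+ libraries and 62.5% to 81.0% in the traced libraries, so a summed level follows this pair. After them came Irf1, Bst2 and Ifi35, at 40.9 to 58.3 CPM in the Lgr5+WT libraries. At the other end, Oas2, Ifit3, Rsad2, Ifit2, Gbp2 and Gbp3 each stayed under 1 CPM in every Lgr5+ library. These levels count transcript ends and are not per length. Reads shared between close relatives, such as Ifitm2 and Ifitm3, Ifit3 and Ifit3b, Oas1a and Oas1g, or Gbp2, Gbp3 and Gbp7, could have been split or dropped in the counting, so the values of these genes carry that uncertainty.

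At baseline, Ifitm3 and Ifitm2 were highest in stem-like and dividing barcodes, while many of the other members were higher in goblet-like or enterocyte-like barcodes. Each class was compared with the mean of the other classes in the 2 WT libraries (edgeR's quasi-likelihood test with the library as a block, Benjamini-Hochberg adjustment over all genes tested), in 8 classes of the Lgr5+ sort with 28 members tested and in 6 classes of the traced sort with 20 tested. CPM of this comparison are scaled over all classes together. Many genes of any kind differed between classes. The shares of all genes given for this comparison cover both directions, so the counts of members higher have no share of the same direction beside them. In the Lgr5+ sort the share of members called in either direction was below that of all genes in stem-like (28.6% against 37.4%), dividing (28.6% against 40.2%), enterocyte-like (35.7% against 44.8%), tuft-like (14.3% against 19.2%) and enteroendocrine-like barcodes (21.4% against 36.4%). It was near it in Paneth-like (17.9% against 14.7%) and T cell-like (7.14% against 6.46%) and above it in goblet-like barcodes (53.6% against 31.5%). In the traced sort it was above that of all genes in enterocyte-like (65% against 38.7%) and goblet-like barcodes (30% against 14.6%).

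Ifitm3 stood at 1338 and 1499 CPM in stem-like barcodes of the Lgr5+WT libraries, at 844 and 828 CPM in dividing barcodes, and at 71.6 and 70.0 CPM in enterocyte-like barcodes. Its log2 difference from the other classes was 2.28 ± 0.09 (SE) in stem-like and -2.69 ± 0.16 in enterocyte-like barcodes. Ifitm2 stood at 1046 and 1235 CPM in stem-like and 204 and 285 CPM in enterocyte-like barcodes. In these libraries the order of Ifitm3 levels was stem-like, dividing, Paneth-like (498 and 621 CPM), T cell-like, tuft-like, enteroendocrine-like, goblet-like (112 and 202 CPM) and enterocyte-like. The T cell-like, tuft-like and enteroendocrine-like levels overlapped between the libraries. The third place of Paneth-like barcodes depends on the scaling. By library totals they stood at 243 and 293 CPM, below the T cell-like (756 and 303 CPM), enteroendocrine-like (307 and 436 CPM) and tuft-like (315 and 420.4 CPM) barcodes of both libraries. The share of barcodes with at least 1 Ifitm3 UMI was 92.7% and 94.2% in stem-like barcodes (median 6225 and 4919 UMIs) and 22.6% and 20.3% in enterocyte-like barcodes (median 8418.5 and 6671 UMIs). With each barcode thinned to 2000 UMIs the shares were 83.7% and 86.3% against 4.38% and 6.18%. Free RNA gives UMIs in barcodes that do not make a gene, and Ifitm3 stood at 568 and 573 CPM in droplets of 10 to 100 UMIs of these libraries, so a share of barcodes with a UMI is not a share of cells that make Ifitm3. In traced WT libraries Ifitm3 was likewise higher in stem-like barcodes, at 426 and 410 CPM (log2 difference 1.77), and lower in enterocyte-like barcodes, at 58.2 and 89.2 CPM (log2 difference -1.35). Of the 28 members tested, 2 were higher and 6 lower in stem-like barcodes (37.4% of all genes tested were called in either direction) and the same numbers in dividing barcodes (40.2%). The members lower in stem-like barcodes were Ddx58, Ddx60, Irf7, Isg15, Parp14 and Ifi35. Irf7, the master factor of type I interferon genes, was at 6.65 and 4.17 CPM there.

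In goblet-like barcodes of the Lgr5+ sort 13 of 28 members were higher and 2 lower (31.5% of all genes called), the largest number higher among the 8 classes. These 13 were the sensors and adaptor Ddx58, Ifih1, Ddx60, Mavs and Tlr3, the factors Irf7 and Stat2, the effectors Oas1a, Oasl2, Samhd1 and Bst2, and Isg15 and Trim25. Samhd1, which destroys the nucleotides that viruses need to copy DNA, stood at 84.9 and 80.1 CPM in goblet-like barcodes and at 11.8 and 12.0 CPM in dividing barcodes, a log2 difference of 2.23 ± 0.13 for goblet-like against the other classes. Isg15, a ubiquitin-like protein that is attached to other proteins in response to interferon, stood at 55.8 and 39.1 CPM in goblet-like and at 9.47 and 3.98 CPM in stem-like barcodes. The T cell-like class is shallow and holds 0 UMIs of many members. Without it, in a fit added after the data were seen, 30 members were tested and 20 were higher and 2 lower in goblet-like barcodes (37.3% of all genes called). In stem-like barcodes 3 were then higher and 12 lower (47% of all genes), in dividing barcodes 2 and 11 (50.7%), in enterocyte-like barcodes 10 and 3 (52.1%), in tuft-like barcodes 6 and 0 (22.5%), in Paneth-like barcodes 3 and 1 (15.7%) and in enteroendocrine-like barcodes 1 and 5 (40%).

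Enterocyte-like barcodes of the Lgr5+ sort had 8 members higher and 2 lower (44.8% of all genes called). Ifi35, an interferon-induced leucine zipper protein, stood there at 146 and 128 CPM, against at most 56.1 CPM as the mean of any other class. Parp9, a partner of Dtx3l in an interferon-induced complex, stood at 44.2 and 26.4 CPM. Irf1 was highest among the epithelial classes there, at 90.7 and 64.0 CPM (log2 difference 0.68 ± 0.13). In tuft-like barcodes 4 members were higher and none lower (19.2% of all genes called), namely Irf7, Oasl2, Isg15 and Usp18. Irf7 stood at 97.3 and 53.8 CPM in tuft-like and at 68.7 and 33.2 CPM in goblet-like barcodes. Both classes were above the 4.17 to 7.58 CPM of stem-like and dividing barcodes in each library. Usp18, which removes ISG15 from proteins and dampens interferon signalling, had its highest level in enteroendocrine-like barcodes, at 23.3 and 19.3 CPM on 18 and 19 UMIs (log2 difference 5.06 ± 0.59). It was the only member higher in that class, where 5 were lower (36.4% of all genes called). Gbp7, an interferon-gamma-induced GTPase, had its highest value in the T cell-like class, on only 7 and 1 UMIs, and was the 1 member higher there, while Ifitm2 was lower (6.46% of all genes called).

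Paneth-like barcodes of the Lgr5+ sort had 3 members higher (Samhd1, Ifitm3, Trim25) and 2 lower (Irf1, Isg15), where 14.7% of all genes were called. Scaling by library totals in place of TMM moved the median of all genes in that class by -1.19, and the log2 difference of Ifitm3 from 0.74 to -0.46, so its direction in Paneth-like barcodes depends on the scaling. In enteroendocrine-like barcodes the same change moved that median by 0.59 and Ifitm2, Ifitm3 and Ifi35 from -0.55, -0.48 and -0.58 to 0.03, 0.10 and 0.02.

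In traced WT libraries more members were higher in enterocyte-like than in goblet-like barcodes. Of 20 members tested, 11 were higher and 2 lower in enterocyte-like barcodes (38.7% of all genes called), and 5 higher and 1 lower in goblet-like barcodes (14.6%). Irf7 stood at 48.7 and 77.2 CPM in enterocyte-like barcodes and at 19.5 and 29.7 CPM in goblet-like barcodes. Isg15 stood at 39.2 and 31.9 CPM in enterocyte-like barcodes, 13.4 and 15.9 CPM in goblet-like barcodes, and 1.82 and 3.35 CPM in dividing barcodes. Irf7, Isg15, Parp9, Oasl2, Irf1 and Ifi35 passed the test as higher in enterocyte-like barcodes of this sort, and so did Ddx60, Irf9, Trim25, Parp14 and Dtx3l. In stem-like barcodes 2 members were higher and 1 lower (12.8%), in dividing barcodes 2 and 4 (33.4%), in Paneth-like barcodes 4 and 0 (19.1%), and in enteroendocrine-like barcodes 0 and 1 (7.13%). All 4 calls in Paneth-like barcodes (Irf3, Bst2, Ifitm3, Trim25) had the opposite sign with library totals, where the median of all genes in that class moved by -2.89. In the other classes of the traced sort it moved by 0.27 to 1.05, and no other call there changed sign.

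**Figure D1:**
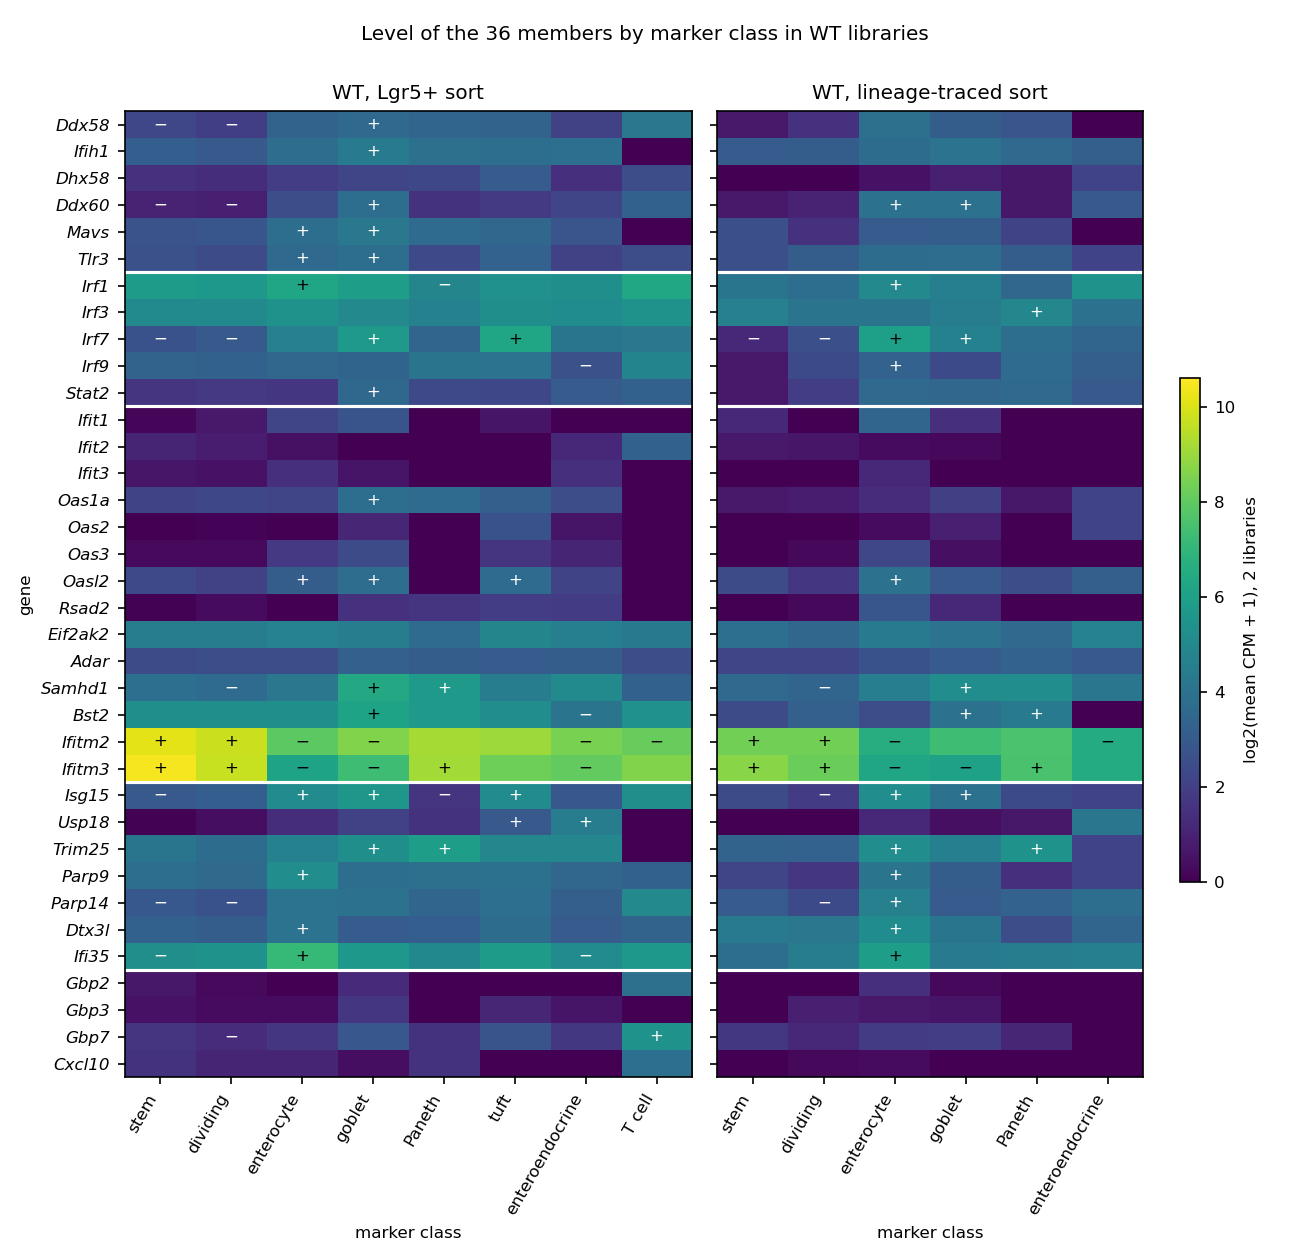
Heat maps of the mean level of the 36 members, as log2(CPM + 1), in each marker class (columns) of the 2 WT libraries of the Lgr5+ sort and of the traced sort. Plus and minus signs mark members called higher or lower in a class than in the mean of the other classes, and the 13 plus signs of the goblet-like column in the Lgr5+ sort and the 11 of the enterocyte-like column in the traced sort stand out, as do Ifitm2 and Ifitm3 in stem-like and dividing barcodes.

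Over all kept barcodes of the Lgr5+ sort, 4 of the 36 members fell in Setdb1KO and none rose. The 4 were Ifitm3, Irf1, Gbp7 and the chemokine gene Cxcl10, which recruits T cells. All 36 passed the filter on low counts. Of all 13662 genes tested, 0.527% were called lower and 0.812% higher. The other 32 members did not pass the test, although 33 of the 36 had a log2 difference below 0, as did 51.1% of all genes tested, and the libraries of the genotypes did not overlap for 27 of the 36, as for 50.2% of all genes. The median log2 difference of the members was -0.55, that of all genes -0.0058, and that of the members without the first Lgr5+WT library -0.32. The test was edgeR's quasi-likelihood test on UMIs summed per library, with 2 libraries a genotype, and CPM of tested genes are scaled by TMM.

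Ifitm3 stood at 704 and 784 CPM in the Lgr5+WT libraries and at 356 and 419 CPM in the Lgr5+Setdb1KO libraries, a log2 difference of -0.94 ± 0.12 (SE, adjusted p = 0.0221). Its 2 WT libraries lay well above both Setdb1KO libraries. Its relative Ifitm2 stood at 707 and 850.2 CPM in WT and at 595 and 648 CPM in Setdb1KO (log2 difference -0.33 ± 0.12, adjusted p = 0.238), without overlap but short of the threshold. Irf1, the transcription factor of the interferon-gamma branch, stood at 58.3 and 49.5 CPM in WT and at 31.9 and 35.4 CPM in Setdb1KO (-0.68 ± 0.11, adjusted p = 0.0366). Both Setdb1KO libraries were below both WT libraries. Cxcl10 rested on few molecules, 50 and 33 UMIs in WT and 3 and 9 in Setdb1KO, or 1.24 and 0.827 CPM against 0.105 and 0.154 CPM. Its log2 difference was -2.90 ± 0.44 (adjusted p = 0.0343), and the ratio of its summed counts, scaled to the library totals, was 0.13, with an exact 95% interval of 0.0646 to 0.239 for counting error only. The 33 UMIs of the second WT library came from 10 barcodes, 1 of which held 14. Gbp7 was counted at 115 and 80 UMIs in WT and at 6 and 31 in Setdb1KO, or 2.86 and 2.01 CPM against 0.209 and 0.530 CPM (-2.57 ± 0.40, adjusted p = 0.0355). These UMIs were spread over 104, 74, 6 and 31 barcodes.

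The calls of these 4 genes each depended on the libraries. Without the first Lgr5+WT library the adjusted p was 0.106 for Irf1, 0.126 for Gbp7 and 0.158 for Cxcl10. Without the second it was 0.0611 for Ifitm3, 0.0666 for Gbp7 and 0.0728 for Cxcl10, and without the first Setdb1KO library 0.0583 for Ifitm3, 0.0621 for Cxcl10 and 0.0934 for Irf1. Without the filter on low counts none of the 4 passed (adjusted p = 0.0755 to 0.114). Without any 1 of the libraries that ended a call, the log2 differences ranged from -0.83 to -0.86 for Ifitm3, -0.56 to -0.61 for Irf1, -2.32 to -2.82 for Gbp7 and -2.59 to -3.17 for Cxcl10.

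By role, the 6 sensors and adaptor had a median log2 difference of -0.23 and no call, with Mavs, at 8.05 and 8.07 CPM in WT and 10.4 and 9.41 CPM in Setdb1KO, the 1 member above 0. The 5 transcription factors were all below 0, from -0.16 (Irf7) to -0.68 (Irf1). Of the 14 effectors 13 were below 0 (median -0.65), with Ifitm3 the 1 that passed. Bst2, also called tetherin because it holds budding virus at the cell surface, stood at 40.9 and 42.0 CPM in WT and at 23.1 and 29.0 CPM in Setdb1KO (-0.66 ± 0.12, adjusted p = 0.0538) and was called under 5 of 9 other settings. Ifi35 was at 48.6 and 45.0 CPM in WT and 47.5 and 48.0 CPM in Setdb1KO (0.03 ± 0.08, adjusted p = 0.890), so its libraries overlapped, unlike those of most members. The 4 genes of the guanylate binding protein and chemokine group had the lowest median, -2.02.

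**Figure D2:**
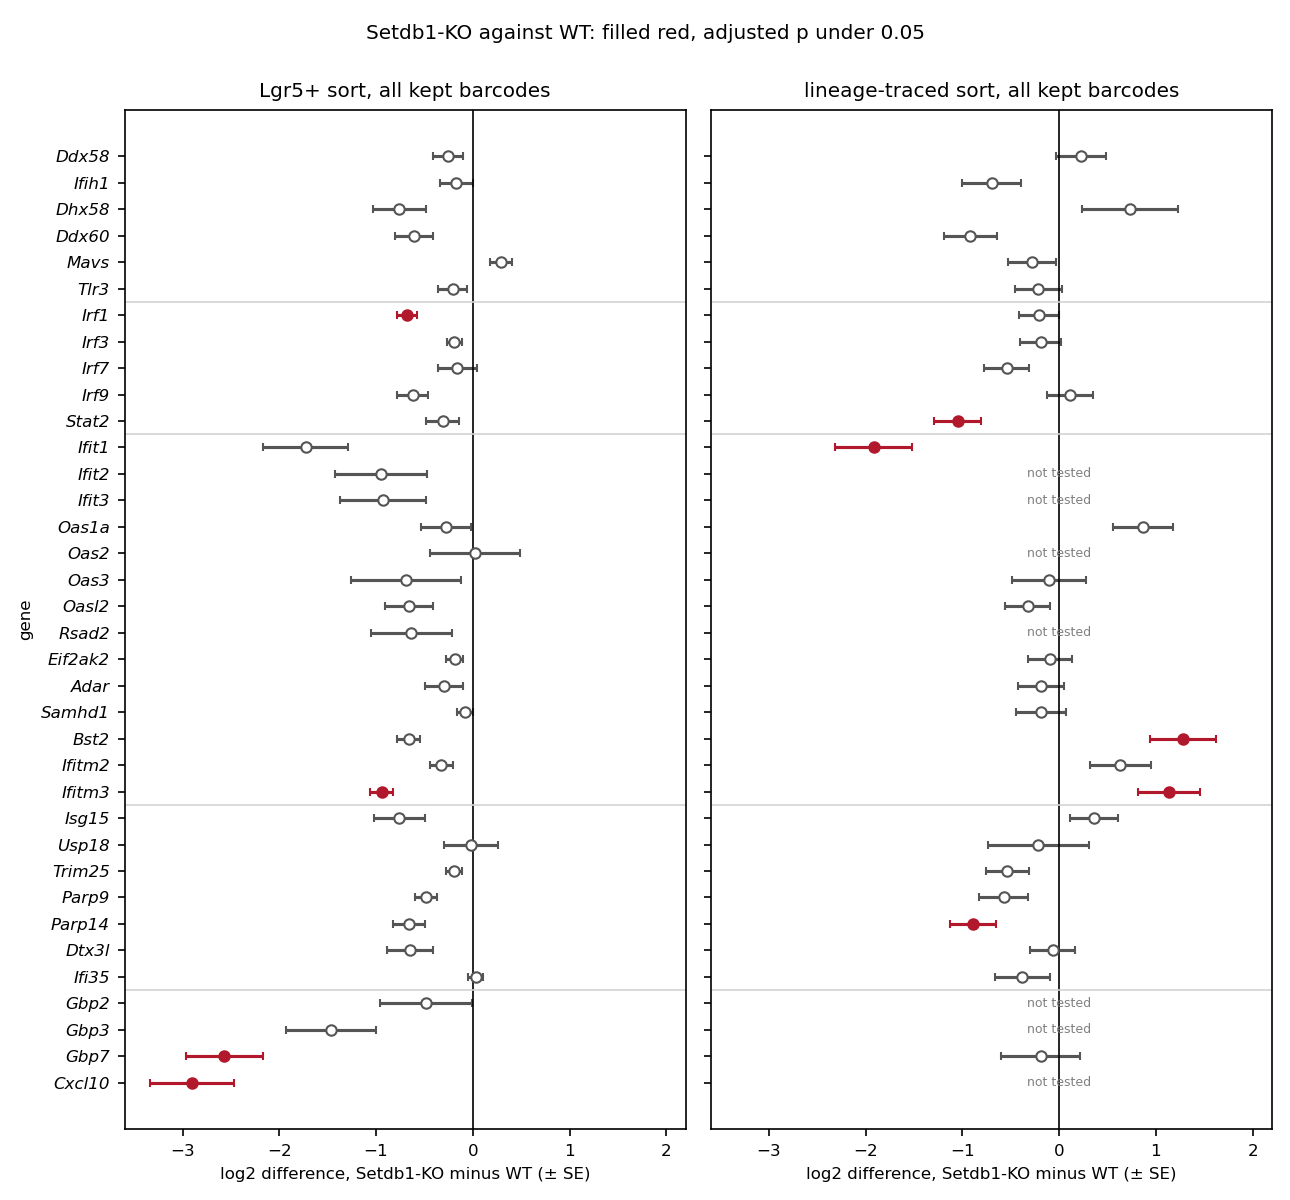
Log2 difference Setdb1-KO minus WT of each member (points, with SE bars) over all kept barcodes of the Lgr5+ sort and of the traced sort, grouped by role. Red points mark members with an adjusted p under 0.05. In the Lgr5+ sort 33 of 36 points lie left of 0, and in the traced sort, where 29 members were tested, the 2 red points right of 0 are Bst2 and Ifitm3.

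Free RNA and other cell types moved along with these values. In droplets of 10 to 100 UMIs, Ifitm3 was at 568 and 573 CPM in Lgr5+WT and at 222 and 296 CPM in Lgr5+Setdb1KO, and Ifitm2 at 499 and 715 CPM against 366 and 475 CPM. T cell markers made up 0.0130% and 0.00782% of the UMIs of kept barcodes in Lgr5+WT and 0.00208% and 0.00152% in Lgr5+Setdb1KO, with 26 and 20 T cell-like barcodes against 6 and 7. Stem markers, which mark the barcodes where Ifitm3 is highest, made up 0.380% and 0.342% in WT and 0.223% and 0.184% in Setdb1KO. Enterocyte markers, of the class where Ifitm3 is lowest, made up 0.228% and 0.316% in WT and 0.714% and 0.382% in Setdb1KO. Enteroendocrine markers made up 0.103% and 0.145% against 0.467% and 0.205%. Over all barcodes, fewer cells of a type and less RNA per cell cannot be told apart, and the part of these sources in the differences was not tested. Without immune and stromal barcodes 4 members were again called lower and none higher. The interferon-gamma gene Ifng had 1 UMI in the kept barcodes of each Lgr5+WT library and 0 in the others.

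**Figure D3:**
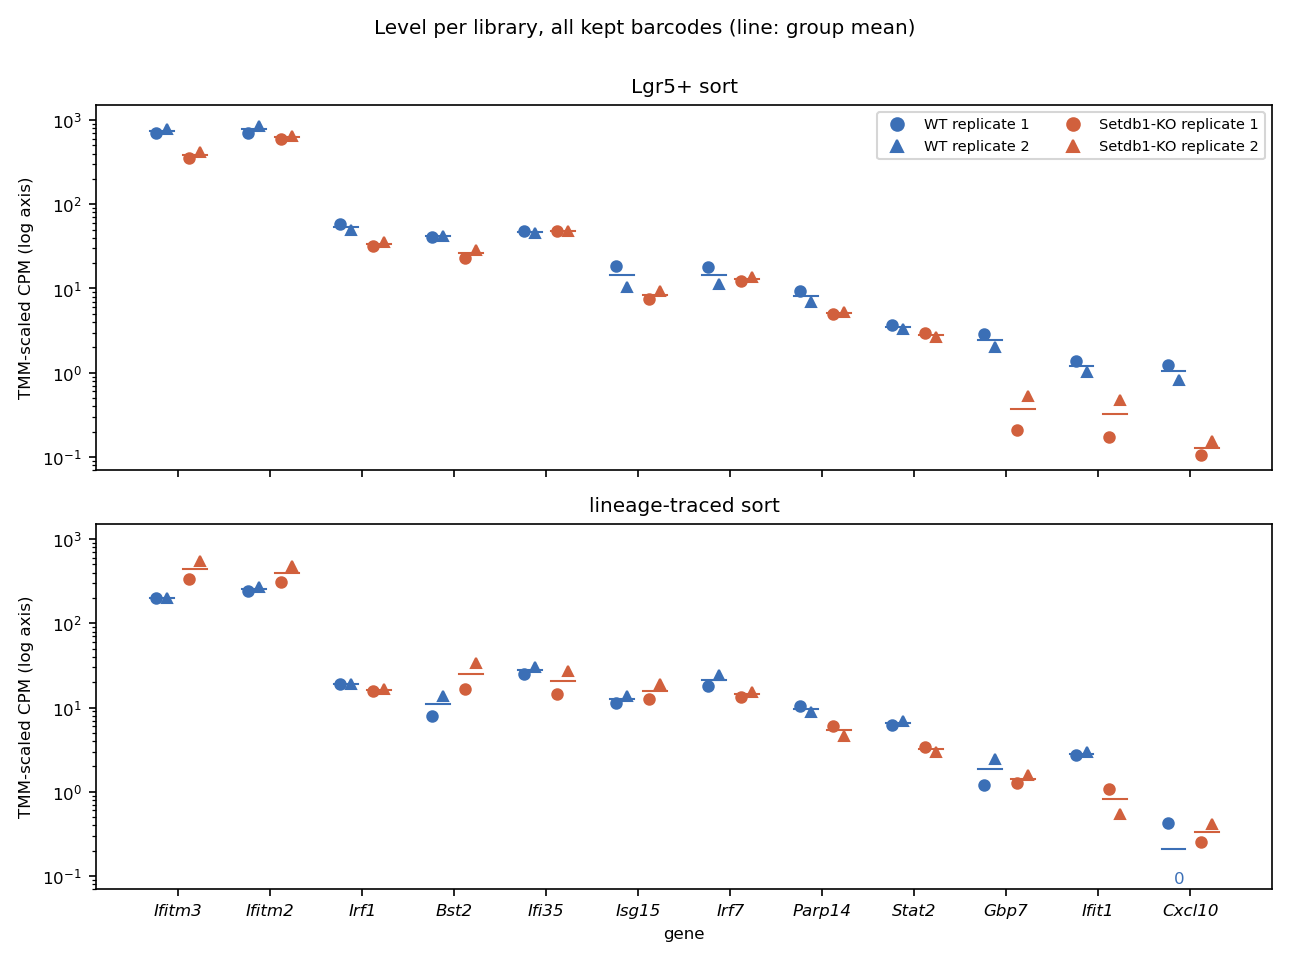
Level of 12 members in each library (CPM with TMM scaling, log axis) in the Lgr5+ sort and the traced sort, with WT libraries in blue, Setdb1-KO libraries in orange and bars for the mean of each group of 2. Ifitm3 lies lower in both Lgr5+Setdb1KO libraries (356 and 419 CPM against 704 and 784 CPM) and higher in both traced Setdb1-KO libraries (338 and 545 CPM against 199.8 and 201.8 CPM).

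Within the marker classes of the Lgr5+ sort, the same comparison gave 6 calls, all of them lower. In stem-like barcodes, 1 of 26 members tested fell (0.384% of all genes were called lower). This was Cxcl10, on 22 and 18 UMIs in WT and 1 and 1 in Setdb1KO (log2 difference -3.65 ± 0.67, adjusted p = 0.0266), a ratio of summed counts of 0.0709 with an exact 95% interval of 0.0083 to 0.273. Without the first WT library the adjusted p was 0.196, without the second 0.123, without the second Setdb1KO library 0.0564, and with DESeq2 0.301. Ifitm3 in stem-like barcodes stood at 1326 and 1484 CPM in WT and at 938 and 1029 CPM in Setdb1KO (-0.51 ± 0.11, adjusted p = 0.0658), short of the threshold but called under 4 of 8 other settings (adjusted p = 2.3e-04 to 0.0856 over the 8). Irf1 stood at 60.0 and 49.6 CPM against 38.5 and 37.8 CPM (-0.52 ± 0.12, adjusted p = 0.0818) and was called under 2 of the 8. The class's own stem markers made up 0.858% and 0.749% of its UMIs in WT and 0.662% and 0.617% in Setdb1KO, without overlap, and their part in these differences was not tested.

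Dividing barcodes gave the calls that held best. There 2 of 27 members tested fell (0.358% of all genes called lower), and each was called without any 1 of the 4 libraries and under each of 8 other settings. Ifitm3 stood at 856 and 842 CPM in WT and at 435 and 465 CPM in Setdb1KO, a log2 difference of -0.92 ± 0.09 (adjusted p = 0.00371), with a narrow spread inside each genotype. Irf1 stood at 53.5 and 47.9 CPM in WT and at 27.9 and 32.3 CPM in Setdb1KO (-0.74 ± 0.11, adjusted p = 0.0309). Stem markers moved with them inside this class, from 0.411% and 0.344% of its UMIs in WT to 0.241% and 0.197% in Setdb1KO. Enterocyte markers rose in it, from 0.125% to 0.197% over both libraries of each genotype. The part of these moves was not tested. In unassigned barcodes 3 of 23 members fell (1.09% of all genes called lower), namely Bst2 (39.1 and 41.2 CPM against 20.9 and 26.8 CPM, -0.71 ± 0.13, adjusted p = 0.0214), Irf1 (66.2 and 51.7 CPM against 28.0 and 39.2 CPM, -0.77 ± 0.16, adjusted p = 0.0346) and Parp14 (-1.17 ± 0.26, adjusted p = 0.0459), an ADP-ribosyltransferase induced by interferon. Without the first WT library the adjusted p of Irf1 was 0.146 and that of Parp14 0.203, and with DESeq2 that of Bst2 was 0.0536 and that of Parp14 0.227. Ifitm3 was not called in unassigned barcodes. It stood there at 295 and 420 CPM in WT and at 269 and 363 CPM in Setdb1KO, with overlap (-0.17 ± 0.17, adjusted p = 0.661). Stem markers made up 0.0747% and 0.0904% of the UMIs of these barcodes in WT and 0.0872% and 0.0895% in Setdb1KO, with overlap. Other markers moved more. Over both libraries of each genotype, Paneth markers went from 0.214% to 0.429%. B or plasma markers went from 0.000817% to 0.000394% and T cell markers from 0.000199% to 9.36e-05%. The part of these moves was not tested.

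In the differentiated classes of the Lgr5+ sort that were fitted, no member passed edgeR's test. Paneth-like barcodes of this sort were not compared between the genotypes. In goblet-like barcodes 0 of 29 members were called (0.385% of all genes), 1 with DESeq2, and 15 had an unadjusted p under 0.05. For counts at an unadjusted p, here and below, the share of all genes is not given, so they have no comparison. Gbp7 came nearest, at 45 and 20 UMIs in WT and 4 and 7 in Setdb1KO (-2.76 ± 0.50, adjusted p = 0.0683, called under 5 of 8 other settings), followed by Isg15 at 50.2 and 34.9 CPM against 20.6 and 24.4 CPM (-0.90 ± 0.19, adjusted p = 0.143) and by Irf1 at 58.1 and 48.2 CPM against 35.2 and 34.3 CPM (-0.62 ± 0.15, adjusted p = 0.208). In enterocyte-like barcodes 0 of 22 were called (0.392% of all genes), 0 with DESeq2, and 7 had an unadjusted p under 0.05, Irf1 the smallest (80.4 and 55.6 CPM against 36.3 and 39.4 CPM, -0.81 ± 0.18, adjusted p = 0.152), before Oasl2 and Bst2. Ifitm3 overlapped between genotypes in enterocyte-like barcodes, at 63.5 and 60.9 CPM against 12.7 and 67.6 CPM (-0.59 ± 0.53, adjusted p = 0.767). In tuft-like barcodes 0 of 18 were called (0.0449% of all genes), 0 with DESeq2, and in enteroendocrine-like barcodes 0 of 15 (0% of all genes), 0 with DESeq2, with 2 at an unadjusted p under 0.05 in each. Ifitm3 had the smallest p in both, at 308 and 445 CPM against 49.7 and 179.9 CPM in tuft-like barcodes (-1.65 ± 0.39, adjusted p = 0.387) and at 299.97 and 459 CPM against 71.7 and 193 CPM in enteroendocrine-like barcodes (-1.51 ± 0.37, adjusted p = 0.388). It was called in 3 of the 4 fits that left out a library and under 2 of 8 other settings in tuft-like barcodes, and in 2 of the 4 and 2 of the 8 in enteroendocrine-like barcodes. The Setdb1KO libraries differed widely from each other in these small classes. Stem markers moved the same way there, from 0.19% and 0.189% to 0.0499% and 0.1003% of the UMIs in tuft-like and from 0.131% and 0.179% to 0.041% and 0.084% in enteroendocrine-like barcodes, and their part was not tested.

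**Figure D4:**
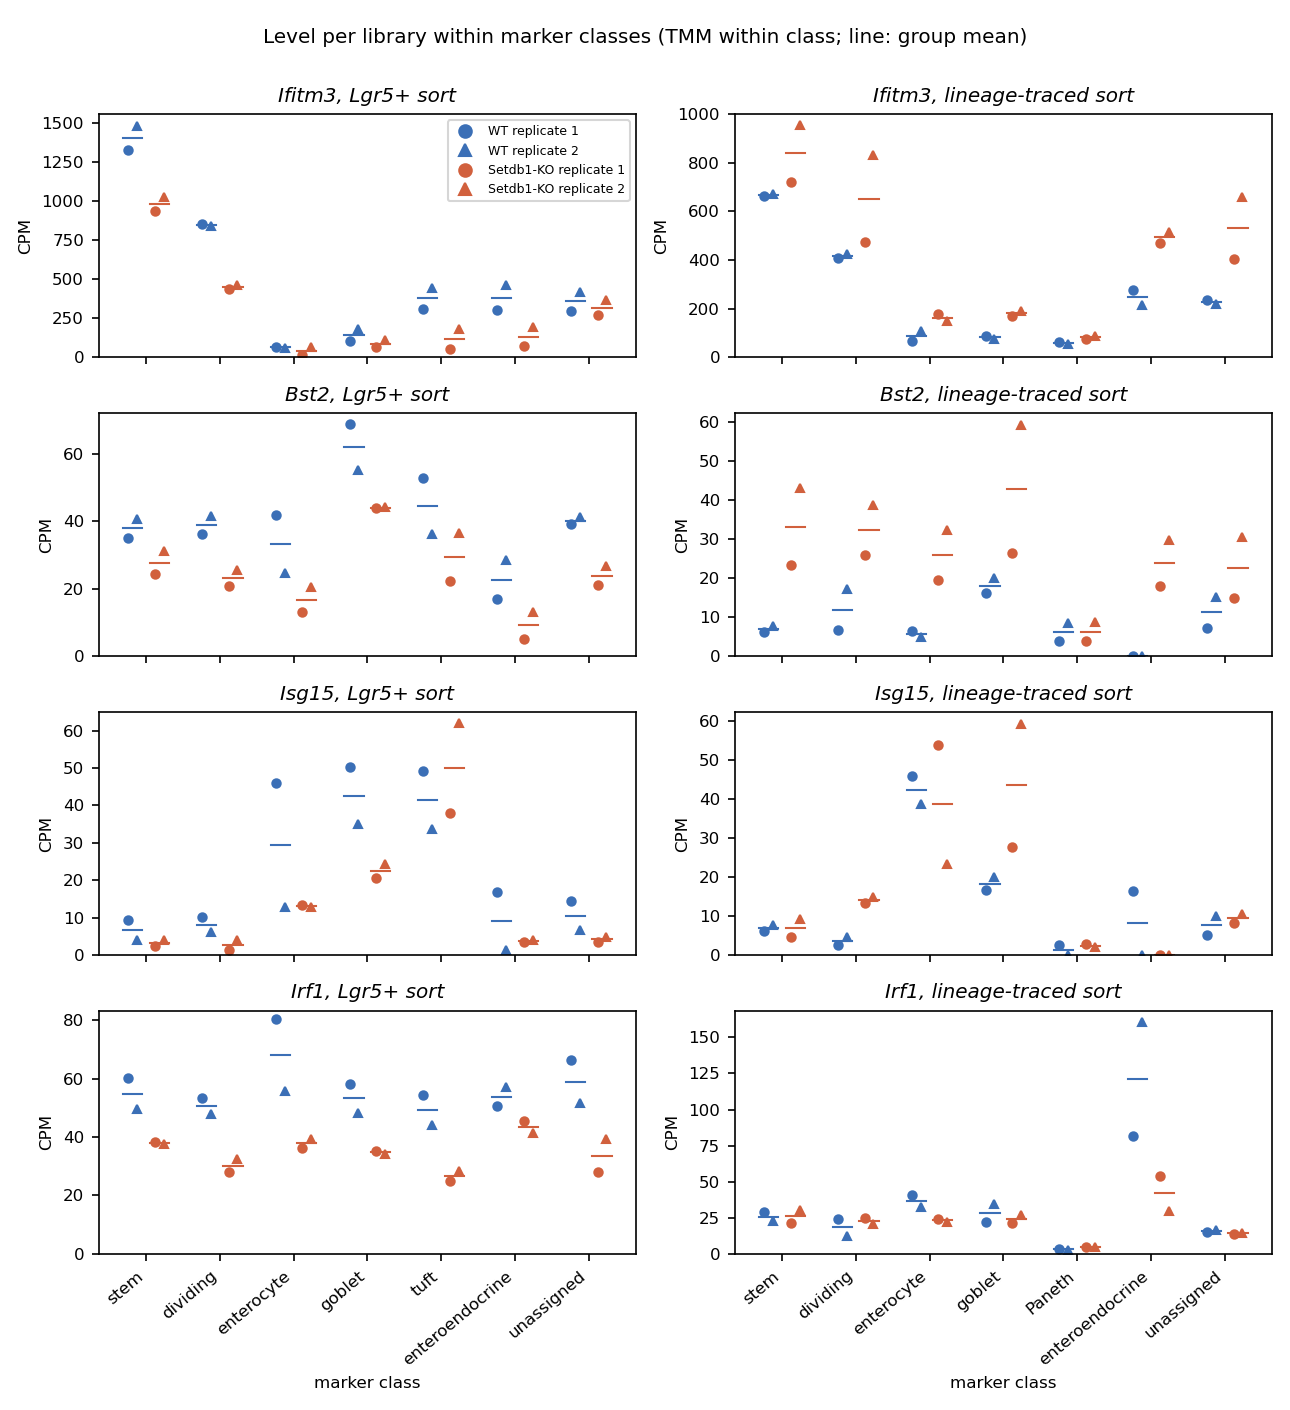
Levels of Ifitm3, Bst2, Isg15 and Irf1 (CPM with TMM scaling within the class, linear axes that start at 0 and differ between panels) by marker class in the Lgr5+ sort and in the traced sort, with WT in blue, Setdb1-KO in orange, circles for replicate 1, triangles for replicate 2 and short bars for group means. In dividing barcodes of the Lgr5+ sort Ifitm3 lies at 856 and 842 CPM in WT and 435 and 465 CPM in Setdb1KO, while Bst2 in dividing barcodes of the traced sort lies at 6.57 and 17.2 CPM in WT and 25.9 and 38.6 CPM in Setdb1-KO.

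In the lineage-traced sort, over all kept barcodes, 2 of 29 members tested rose and 3 fell in Setdb1-KO, where 1.54% of all 12205 genes tested were called higher and 7.19% lower. Bst2 and Ifitm3 rose, while Ifit1, Stat2 and Parp14 fell. Ifit2, Ifit3, Oas2, Rsad2, Gbp2, Gbp3 and Cxcl10 did not pass the filter on low counts, with 0 to 39 UMIs in any traced library. The median log2 difference of the 29 was -0.19, against 0.011 for all genes. With library totals in place of TMM the median of all genes moved by 0.52 and that of the members to 0.34, so the changes below are relative to the bulk of genes.

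Ifitm3 stood at 199.8 and 201.8 CPM in traced WT and at 338 and 545 CPM in traced Setdb1-KO (log2 difference 1.14 ± 0.32, adjusted p = 0.0450), and Bst2 at 7.98 and 13.8 CPM against 16.8 and 33.8 CPM (1.28 ± 0.34, adjusted p = 0.0356). For both genes each Setdb1-KO library was above each WT library, and the second Setdb1-KO library was far above the first. Ifitm2 stood at 239.5 and 268 CPM in WT and at 310.3 and 476 CPM in Setdb1-KO (0.63 ± 0.31, adjusted p = 0.283). Ifit1, which binds viral RNA that lacks the host cap, was counted at 45 and 19 UMIs in WT and at 13 and 16 in Setdb1-KO, or 2.72 and 2.95 CPM against 1.09 and 0.546 CPM (-1.92 ± 0.40, adjusted p = 0.00851). Of these UMIs, 26 and 6 in WT and 4 and 0 in Setdb1-KO lay in enterocyte-like barcodes. Within that class Ifit1 stood at 13.7 and 9.67 CPM against 19.6 and 0 CPM, with overlap and no call (adjusted p = 0.188). The part of that class in the fall was not tested. Stat2 stood at 6.23 and 6.99 CPM in WT and 3.37 and 3.01 CPM in Setdb1-KO (-1.05 ± 0.24, adjusted p = 0.0151), and Parp14 at 10.4 and 8.85 CPM against 6.06 and 4.64 CPM (-0.89 ± 0.24, adjusted p = 0.0349). Their libraries did not overlap between genotypes.

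No call held without the first traced WT library, where adjusted p ranged from 0.0525 (Stat2) to 0.586 (Ifitm3). Without the second traced WT library the adjusted p was 0.072 for Stat2 and 0.417 for Ifitm3, and without the second Setdb1-KO library it was 0.0607 for Ifit1, 0.0739 for Ifitm3, 0.0987 for Parp14 and 0.114 for Bst2. With library totals in place of TMM, Stat2 (-0.53, adjusted p = 0.203) and Parp14 (-0.34, adjusted p = 0.396) lost their calls, as they did with DESeq2 (0.103 and 0.18). In droplets of 10 to 100 UMIs, Ifitm3 was at 186 and 148 CPM in traced WT and at 358 and 461 CPM in traced Setdb1-KO, and Bst2 at 7.23 and 6.68 CPM against 21.3 and 18.5 CPM, so the free RNA of these libraries moved the same way. The Bst2 droplet values rest on only 6 and 49 UMIs in WT and 9 and 5 UMIs in Setdb1-KO. Within the traced WT libraries Paneth markers made up 6.19% to 31.7% of the UMIs in the classes other than Paneth-like that were compared, against 1.46% to 3.87% in Setdb1-KO. With Paneth transcripts removed before scaling, a fit added after the data were seen, the same 5 members were called, with log2 differences of 1.15 for Ifitm3 (adjusted p = 0.0328), 1.29 for Bst2 (0.0238), -1.91 for Ifit1 (0.00819), -1.04 for Stat2 (0.0164) and -0.88 for Parp14 (0.0404). Enterocyte markers, of the class where Parp14 was called higher at baseline, made up 0.589% and 0.718% of the UMIs in traced WT and 0.175% and 0.253% in traced Setdb1-KO. Stem markers, of the class where Ifitm3 was called higher, made up 0.0722% and 0.0567% in WT and 0.137% and 0.0853% in Setdb1-KO. The part of the free RNA and of these classes in the differences was not tested.

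Within the traced classes, 7 calls went up and 7 down over 7 classes, and each of the 14 was also called with Paneth transcripts removed. That removal leaves other free RNA and the cuts of the classes in place. The cuts follow each library's droplets, so those for Paneth-like, enterocyte-like and goblet-like barcodes differed between the genotypes. Paneth markers made up 33.8% and 35.4% of droplet UMIs in traced WT and 15.0% and 22.8% in traced Setdb1-KO. Goblet markers made up 2.75% and 2.68% of them in traced WT and 2.82% and 2.97% in traced Setdb1-KO. The part of these unlike cuts in the differences below was not tested. Bst2 rose in dividing, enterocyte-like and goblet-like barcodes, Isg15 in dividing and goblet-like barcodes, Ifitm3 in goblet-like and Ifitm2 in enterocyte-like barcodes. In dividing barcodes 2 of 15 members rose (0.422% of all genes called higher). Bst2 stood at 6.57 and 17.2 CPM in WT and at 25.9 and 38.6 CPM in Setdb1-KO (1.75 ± 0.38, adjusted p = 5.5e-04). Isg15 stood at 2.53 and 4.68 CPM against 13.2 and 14.9 CPM (2.18 ± 0.52, adjusted p = 0.00275), on 5 and 3 UMIs in WT. In goblet-like barcodes 3 of 24 members rose (0.461% of all genes called higher). Markers of other classes moved inside this class, taken over both libraries of each genotype. Enterocyte markers went from 0.322% to 0.194% of its UMIs, dividing markers from 0.0475% to 0.0566% and tuft markers from 0.00147% to 0.00362%. Their part was not tested. Isg15 stood at 16.7 and 19.9 CPM in WT and at 27.7 and 59.2 CPM in Setdb1-KO (1.34 ± 0.33, adjusted p = 0.00441), Bst2 at 16.2 and 19.9 CPM against 26.5 and 59.2 CPM (1.35 ± 0.33, adjusted p = 0.00443), and Ifitm3 at 88.2 and 74.2 CPM against 170.3 and 189.9 CPM (1.14 ± 0.30, adjusted p = 0.0122). In dividing barcodes the calls of Bst2 and Isg15 were lost without the first WT library (adjusted p = 0.999 for each), and that of Isg15 also without the second Setdb1-KO library (0.0839). In goblet-like barcodes all 3 calls were lost without the first WT library, without either Setdb1-KO library and, for Ifitm3, without the second WT library (adjusted p of 0.154 to 0.785 over these). That of Ifitm3 was also lost with a barcode minimum 2 times higher (0.0651). With DESeq2 Bst2 and Isg15 were called in neither class (0.294 to 0.469).

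Enterocyte-like barcodes of the traced sort were many in WT (1270 and 377) and few in Setdb1-KO (93 and 227), and there 2 of 19 members rose and 6 fell, where 7.04% of all genes were called higher and 16.0% lower. Bst2 rose from 6.31 and 4.84 CPM to 19.6 and 32.3 CPM (2.28 ± 0.48, adjusted p = 9.8e-04) and Ifitm2 from 118 and 113 CPM to 229.9 and 288 CPM (1.18 ± 0.35, adjusted p = 0.0157). The rise of Bst2 rested on 12 and 3 UMIs in WT and 4 and 25 in Setdb1-KO. The members that fell were Irf7 (-1.76 ± 0.41, adjusted p = 0.00242), Ddx60 (adjusted p = 0.00274), Trim25 (-1.70, adjusted p = 0.00558), Parp14 (-2.03, adjusted p = 0.00657), Parp9 (-2.22, adjusted p = 0.0141) and Dtx3l (-1.44, adjusted p = 0.0198). These 6 had also been called higher in enterocyte-like barcodes at baseline. That comparison shares the WT libraries and is not separate evidence, and the share of all genes with both calls is not given. The class's own markers made up 4.07% and 3.92% of its UMIs in WT and 2.38% and 2.98% in Setdb1-KO. Dividing markers rose in it from 0.0328% to 0.0463% over both libraries of each genotype, while stem markers went from 0.0336% to 0.0263%. The part of these moves in the falls and rises of the members was not tested. Ddx60, a helicase that assists RIG-I, had 38 and 9 UMIs in WT and 1 and 0 in Setdb1-KO, a ratio of summed counts of 0.0526 with an exact 95% interval of 0.0013 to 0.308. The other members that fell also had few UMIs in Setdb1-KO. Irf7 had 108 and 58 in WT against 3 and 18, and Trim25 92 and 22 against 3 and 10. Parp14 had 63 and 14 against 1 and 6, Parp9 39 and 11 against 2 and 2, and Dtx3l 64 and 31 against 4 and 10. With DESeq2 only Irf7 (adjusted p = 0.0451) and Ifitm2 (0.0158) were called, and the other 6 had an adjusted p of 0.0940 to 0.308. Leaving out each of the 4 libraries in turn kept the call of Irf7 in 3 cases and that of Bst2 in 2. Without the second WT library the adjusted p of Irf7 was 0.0574, without the first WT library that of Bst2 was 0.0521 and without the second Setdb1-KO library 0.371. For the other 6 the call was lost without 1 to 3 of the libraries, up to an adjusted p of 0.597, and that of Ifitm2 also without the filter on low counts (0.0646).

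In traced unassigned barcodes 1 of 24 members fell (4.18% of all genes called lower), which was Stat2 (-1.44 ± 0.37, adjusted p = 0.0238), a call lost without either WT library or the second Setdb1-KO library (adjusted p = 0.136 to 0.202), with library totals (0.188) and with DESeq2 (0.251). Ifitm3 stood there at 236 and 217 CPM in WT and at 402 and 660.4 CPM in Setdb1-KO (1.23 ± 0.36, adjusted p = 0.0555), short of the threshold, but was called higher under each of 7 other settings (adjusted p up to 0.0391) and in 1 of the 4 fits that left out a library. Bst2 stood at 7.24 and 15.1 CPM against 14.8 and 30.4 CPM (1.11 ± 0.36, adjusted p = 0.0870), with overlapping libraries, and was called under 5 of the 7. In stem-like barcodes 0 of 9 members were called (1.11% of all genes), also 0 with DESeq2, with 1 at an unadjusted p under 0.05. That gene was Bst2, on 3 and 1 UMIs in WT and 15 and 37 in Setdb1-KO (2.35 ± 0.65, adjusted p = 0.0975). Ifitm3 stood there at 665 and 671 CPM in WT and 722 and 955 CPM in Setdb1-KO (0.33 ± 0.24, adjusted p = 0.943). Only 2 members, Ifitm2 and Ifitm3, could be tested in Paneth-like and in enteroendocrine-like barcodes, and neither was called in either class (10.1% and 5.07% of all genes), by edgeR or by DESeq2. At an unadjusted p under 0.05 there were 0 in the first and 1 in the second, where Ifitm3 stood at 278 and 214 CPM in WT and 469 and 516 CPM in Setdb1-KO (0.94 ± 0.46, adjusted p = 0.347). These levels rested on 17 and 4 UMIs in WT and 26 and 139 in Setdb1-KO. Tuft-like barcodes were too few in the traced sort.

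An interaction of sort and genotype, fitted to all 8 libraries together, was called for 3 of 36 members (1.51% of all genes called higher and 6.07% lower in the traced sort relative to the Lgr5+ sort). These were Ifitm3 (difference of the log2 differences 2.09 ± 0.35, adjusted p = 0.00321), Bst2 (1.99 ± 0.42, adjusted p = 0.0130) and Gbp7 (2.39 ± 0.60, adjusted p = 0.0330). Ifitm3 was below WT in the Lgr5+ sort and above WT in the traced sort, and its interaction was called without any 1 of the 8 libraries. That of Bst2 was lost without the first Lgr5+Setdb1KO library (adjusted p = 0.0514) or the first traced WT library (0.112), and that of Gbp7 without any of 4 libraries, up to 0.195. Gbp7 in the traced sort rested on 15 to 46 UMIs per library and had a log2 difference of -0.19 ± 0.41. Within classes the interaction passed for Bst2 in stem-like, dividing, enterocyte-like, goblet-like and unassigned barcodes, for Isg15 in dividing and goblet-like barcodes, for Ifitm3 in dividing, goblet-like and enteroendocrine-like barcodes, and for Ifitm2 in enterocyte-like barcodes, each higher in the traced sort. Of all genes, 0.0561% were called higher in that way in stem-like, 0.152% in dividing, 2.04% in enterocyte-like, 0.148% in goblet-like, 0.0913% in enteroendocrine-like and 0.181% in unassigned barcodes. The sorts were made in separate experiments that differ in reporter, depth and Paneth RNA, so the sort cannot be told apart from these.

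A list of 71 further genes of the pathway, 68 of them among the features, was read in the same fits. It holds interferons and their receptors, signalling genes, sensors of DNA and more interferon-induced genes. Over all kept barcodes of the Lgr5+ sort 56 were tested and edgeR called 0, while 27 had an unadjusted p under 0.05, DESeq2 called 5, and 43 of the 56 had a log2 difference below 0 (median -0.29), as did 51.1% of all genes (median -0.0058). The share of all genes is not given for the unadjusted and the DESeq2 counts, so these counts do not show whether the list is unusual. The smallest p belonged to Ifit1bl1 (-1.61 ± 0.31, adjusted p = 0.0633), Ifi44 (-3.24 ± 0.70, adjusted p = 0.0839) and Zbp1 (-0.60 ± 0.13, adjusted p = 0.0858), a sensor of Z-form nucleic acid. Over all kept barcodes of the traced sort 53 were tested, 1 rose and 6 fell, where 1.54% of all genes were called higher and 7.19% lower. Ifi44, an interferon-induced gene, rose on 6 and 0 UMIs in WT and 12 and 51 in Setdb1-KO (2.48 ± 0.64, adjusted p = 0.0310). Those that fell with the smallest p were Il18, an epithelial cytokine (27.99 and 32.2 CPM against 7.49 and 11.4 CPM, -1.64 ± 0.25, adjusted p = 9.3e-04), Oasl1 (-1.86 ± 0.30, adjusted p = 0.00162), Ifit1bl1 (-2.43 ± 0.43, adjusted p = 0.00296), Helz2 (-1.23 ± 0.26, adjusted p = 0.0105) and Parp12 (-1.02 ± 0.26, adjusted p = 0.0308). Il18 was among the 10 leading genes of enterocyte-like barcodes in Lgr5+WT. Enterocyte markers fell from 0.589% and 0.718% of the UMIs in traced WT to 0.175% and 0.253% in traced Setdb1-KO. Inside traced unassigned barcodes they went from 0.353% to 0.152% over both libraries of each genotype. Their part in these falls was not tested. By the interaction term Ifi44 (5.73 ± 1.07), Iigp1 (3.81 ± 0.91) and Xaf1 (1.24 ± 0.26) differed as higher in the traced sort and Oasl1 (-2.07 ± 0.37) and Il18 (-1.99 ± 0.31) as lower, with adjusted p of 0.00173 to 0.0255. Within classes, 3 of 46 were called in Lgr5+ unassigned barcodes, 1 higher (Aim2, adjusted p = 0.0454) and 2 lower (Ifit1bl1, 0.0492, and Psmb8, 0.0495), where 0.877% of all genes were called higher and 1.09% lower. In traced enterocyte-like barcodes 6 of 25 fell (among them Zbp1, Oasl1, Helz2 and Parp12, with 16% of all genes called lower), and in traced unassigned barcodes 4 of 43 (Il18, Ifit1bl1, Oasl1 and Helz2, with 4.18%). Of these 13 calls, that of Il18 held without any 1 of the 4 libraries, and each of the others was lost without at least 1. With DESeq2 the calls in these 3 classes were 1, 0 and 1. In each of the other classes edgeR called 0 of the list, with 0 to 18 genes at an unadjusted p under 0.05, and DESeq2 called 1 in Lgr5+ goblet-like barcodes and 0 elsewhere. The interferon genes Ifnb1, Ifnl2 and Ifnl3 had 0 UMIs in the kept barcodes of every library.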

How the data were processed

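Single-cell RNA was measured with the 10x Genomics 3′ assay in 8 libraries, 2 for each genotype of each of the 2 sorts. The authors aligned the reads to mm10 with Cell Ranger (version 6.1.1 in the submitters' processing notes) and deposited raw UMI counts per gene and barcode, for all barcodes. The labels do not tie libraries to named animals, so p-values measure only the spread between libraries.

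From the counts, barcodes were kept at 1000 (Lgr5+) or 500 (traced) to 18000 UMIs and under 5% mitochondrial UMIs. Each lineage class had a threshold for its share of marker UMIs. This was a set minimum or 2 times the share in the library's droplets of 10 to 100 UMIs, whichever was larger. The minimum was 5% for goblet and Paneth, 1% for enterocyte, 0.5% for enteroendocrine, 0.15% for tuft and 0.2% for immune and stromal classes. A barcode with at least 3 marker UMIs took the class whose share was highest relative to its threshold, if it reached it. The rest were split into dividing (at least 0.15%), stem-like (at least 0.3%) and unassigned. Thresholds were set after marker distributions were seen. No doublet caller was run. UMIs were summed per library, or per library and class where every library held at least 20 barcodes, and tested in R 4.3.3 by the quasi-likelihood method of edgeR 4.0.16, after its filter on low counts and TMM scaling, and Benjamini-Hochberg adjustment over all genes, at 0.05. DESeq2 1.42.0 was an alternative. The test was run on simulated data before use. The exact permutation test of the members' summed level cannot go below p = 0.33 with 2 against 2. Intervals cover counting error only.

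The members and the pathway list were chosen with earlier results of these data known. All 36 may be named, with full statistics for called members, for the 5 with the highest mean CPM and, where none was called, for the smallest unadjusted p.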

Additional observations from a re-analysis of the deposited data

Results flagged for a closer look

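The results below were singled out because a test of the difference between the sorts (an interaction term, edgeR's quasi-likelihood test, adjusted over all genes) found the genotype effect to differ. Each value is the log2 effect in the traced sort minus that in the Lgr5+ sort, and all 14 are above 0. Over all kept barcodes they were 2.09 for Ifitm3 (adjusted p = 0.00321), 1.99 for Bst2 (0.0130) and 2.39 for Gbp7 (0.0330). For Bst2 they were 2.91 in stem-like (0.0391), 2.55 in dividing (0.00330), 3.13 in enterocyte-like (0.00164), 1.95 in goblet-like (0.0187) and 1.88 in unassigned barcodes (0.0330). For Isg15 they were 3.56 in dividing (0.00812) and 2.35 in goblet-like barcodes (0.00435). For Ifitm3 they were 1.56 in dividing (0.0343), 1.89 in goblet-like (0.0159) and 2.76 in enteroendocrine-like barcodes (0.00964), and for Ifitm2 1.18 in enterocyte-like barcodes (0.0230). The enteroendocrine-like value of Ifitm3 rests on only 17 and 4 UMIs in traced WT. The test within each sort did not call it. The tests within classes were chosen after seeing the data. Each of those 11 was lost without at least 1 of the 8 libraries, with the adjusted p reaching 0.141 (Ifitm3, goblet-like) to 0.817 (Bst2, stem-like).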

How the results depend on the processing

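For the members called (and, in Lgr5+ classes without a call, the 3 of smallest p), 55 results gave 700 values under other settings, of which 537 kept their direction and their side of the threshold, 133 lost a call, 30 gained one and none changed direction. Other genes named without a call are not counted, and with a library left out Ifi35 (Lgr5+, -0.03 to 0.08), Gbp7 (traced, -0.78 to 0.25) and Aim2 (Lgr5+, -0.16 to 3.06) did change sign. Also left out are the comparisons of classes at baseline, where 8 of 91 calls took the opposite sign with library totals (all in Paneth-like or enteroendocrine-like barcodes) and 0 under the other settings. Counts of calls moved more. The shares of all genes called under each of these settings are not given. The counts therefore show only how far the calls depend on the settings, and nothing particular to the members. In the Lgr5+ sort over all barcodes the 4 calls became 0 without the filter on low counts and 1 to 6 when each library was left out in turn, and over the classes the 6 calls became 10 with library totals, 37 without the filter and 6 to 24 with a library left out. In the traced sort the 5 calls became 3 with DESeq2 and 0 to 11 with a library left out, and the 14 calls over classes became 4 with DESeq2 and 2 to 22. The 33 baseline calls of the traced sort became 50 with library totals. The 3 interactions became 12 with library totals, 6 without the filter and 1 to 8 with a library left out. Of the pathway list the 0 calls of the Lgr5+ sort became 5 with DESeq2, 4 with library totals and 0 to 3 with a library left out, and the 7 of the traced sort 4, 13 and 4 to 16. With the replicate number as a block, the calls became 1 (Lgr5+), 12 (traced), 21 (Lgr5+ classes) and 16 (pathway list, traced), and Cxcl10, Gbp7 and Irf1 lost theirs in the Lgr5+ sort (adjusted p = 0.0980, 0.115 and 0.102). Same-numbered libraries deviated together with a correlation of -0.036 (Lgr5+) and 0.446 (traced). The labels give only the shared number, so whether these libraries also share a preparation or a batch is not known. The main fits do not use the number. The members' median log2 difference moved to -0.32 without the first Lgr5+WT library and to 0.34 in the traced sort with library totals. The cause of these moves was not tested. Baseline contrasts were not run with a library left out, since 1 WT library leaves no residual degrees of freedom. Removing Paneth transcripts or the T cell-like class was added after seeing the data.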

Other observations

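The summed level of all 36 members, on the scale of library totals, was 1888 and 1900 CPM in Lgr5+WT, 1280 and 1303 CPM in Lgr5+Setdb1KO, 608 and 594 CPM in traced WT and 1174 and 1380 CPM in traced Setdb1-KO (exact permutation test, two-sided p = 0.33 in each sort, the smallest that 2 against 2 libraries can give). With TMM scaling the sums of all 36 were 1805 and 1975 CPM in Lgr5+WT and 1231 and 1366 CPM in Lgr5+Setdb1KO. In the traced sort they were 703 and 746 CPM in WT and 889 and 1260 CPM in Setdb1-KO. Without Ifitm2 and Ifitm3 the traced sums were 228 and 220 CPM in WT and 317 and 262 CPM in Setdb1-KO by library totals, and 264 and 276 CPM against 240.2 and 239 CPM with TMM scaling, so the order without this pair depended on the scaling.

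Aim2, a sensor of cytosolic DNA on the pathway list, was picked out after its values were seen. It stood at 1.79 and 2.03 CPM in Lgr5+WT and at 1.71 and 16.0 CPM in Lgr5+Setdb1KO (72, 81, 49 and 938 UMIs, log2 difference 2.27, edgeR adjusted p = 0.233). In each of the 7 classes fitted, the second Lgr5+Setdb1KO library was the highest, at 12.5 to 25.4 CPM, and the other libraries stayed at 3.88 CPM or less. In the traced sort it stood at 3.87 and 4.19 CPM in WT and at 4.21 and 4.34 CPM in Setdb1-KO.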
